A study of Arabidopsis thaliana with 6 samples.

Results

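The *nerd-1* transcriptome was compared with that of WT in 14-d-old *A. thaliana* seedlings, using the 2 libraries labelled *nerd-1* and the 2 labelled WT out of 6 in the series. All plants were of the Col-0 ecotype. *nerd-1* is a single T-DNA insertion line of the *NERD* gene, and the remaining 2 libraries, from the *nerd-1*+T line (mutant plants with a transgene for NERD carrying a flag tag), entered the fit only to estimate the spread between replicates. Libraries were made from polyadenylated RNA of whole seedlings with a stranded kit and sequenced as single reads of 125 bp. The values are FPKM (fragments per kilobase of transcript, scaled to the mapped fragments of the library), a level that is corrected for gene length and library size. Of 33242 genes on the 5 nuclear chromosomes, 19455 (58.5%) reached 1 FPKM in 2 or more of the 4 libraries and were tested. AT5G45150 lay just inside this limit with a second highest value of 1.001 FPKM, and AT1G62590 just outside with 0.9996 FPKM. Among tested genes, 197 reached 1 FPKM in both *nerd-1* libraries but in neither WT library and 262 did so in WT only, and such genes had to differ in order to pass. Of the genes below, *XTH25*, *AGO3* and the short entries among the largest rises, such as *MIR472* and *MIR164b*, passed through *nerd-1* alone. *HEI10*, *FT*, *PS2*, *PBS3*, *BGLU43*, *DML3*, *CAB1*, *MIR863*, *MRD1* and AT1G08005 passed through WT alone. No *p*-value is given for these genes, but they stay in the counts of genes called.

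NERD is a plant protein with a plant homeodomain finger and GW/WG motifs that anchor ARGONAUTE proteins, and it was first described in a chromatin-based silencing pathway that uses small RNAs. It has since been linked to m6A, the methylation of adenosines in mRNA, and to the formation of mRNA 3' ends. Loci at which transcription runs through into a downstream gene were the subject of the study itself, whereas the pathways and gene families described here go beyond those loci. The readthrough loci were not removed from the genes tested, so they stay in the counts. Seedlings at this age carry roots, cotyledons and young leaves, so a change in the level of an mRNA can reflect a change per cell or a change in the proportion of cells that express it, and the values cannot tell these apart.

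The *NERD* gene (AT2G16485, chr2:7136845-7145424, minus strand) had 14.1 and 13.9 FPKM in WT against 7.59 and 7.45 FPKM in *nerd-1*, so that its transcript was lowered but present in the mutant (log2 change -0.81, SE 0.05, adjusted *p* = 0.000143, limma). In *nerd-1*+T it stood at 63.7 and 63.5 FPKM, above the WT level. Values of that line are given below for some genes only, and its differences from WT and *nerd-1* were not tested. In the WT and *nerd-1* libraries FPKM summed to between 863991 and 966119 per library. Of this sum 1 gene, the metallothionein *MT1A*, held 12.9% and 13.5% in *nerd-1* against 1.59% and 1.71% in WT. The 2 replicates of WT had a correlation of log2(FPKM + 1) of 0.995 and those of *nerd-1* 0.997, whereas WT and *nerd-1* libraries correlated at 0.956 to 0.958. The median SD between WT replicates was 0.039 log2 units, against 0.035 for *nerd-1* and 0.089 for the *nerd-1*+T libraries. Nothing in the labels says that the replicates came from separate cultures, so the *p*-values measure the spread between these samples, which may be technical. An exact permutation test of 2 against 2 libraries has a smallest two-sided *p* of 0.333, and the adjusted *p*-values below come from limma, which pools information on the spread over genes and over the 3 genotypes. Markers of other organs were near the bottom of the scale in all 4 libraries. The 6 flower identity genes summed to between 2.82 and 3.46 FPKM, the 10 seed storage and oleosin genes to between 0.813 and 2.29 FPKM, and of 3 pollen genes 2 were listed at 0 throughout. Root markers summed to 2327 and 2302 FPKM in WT and to 1689 and 1691 in *nerd-1*, mostly through *PYK10*, a root ER body beta-glucosidase, and of 11 tested 3 were raised and 4 lowered. The part of root proportion in the results below was not tested.

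A gene was called raised or lowered when its log2(FPKM + 1) differed between *nerd-1* and WT with an adjusted *p*-value under 0.05 (limma, Benjamini-Hochberg over the 19455 genes). By this measure 11285 genes (58.0%) were called, 3996 raised (20.5%) and 7289 lowered (37.5%). Most changes were small: the median log2 change of all tested genes was -0.10 and the quartiles were -0.35 and 0.17. The balance of directions depended on scaling. With libraries scaled to their FPKM totals 2415 genes were raised and 11028 lowered, and with libraries scaled by their medians 5105 were raised and 5676 lowered. A second, stricter call required in addition a log2 change at least 1 above or below the median of all genes, and it took in 678 raised (3.48%) and 237 lowered genes (1.22%). Both *nerd-1* libraries lay above both WT libraries in 6408 genes (32.9%) and below them in 10386 (53.4%), and all 678 and 237 genes of the stricter call were of this kind. Of the 678, 63 reached 1 FPKM in both *nerd-1* libraries only, and 18 of the 237 in both WT libraries only. On the study's lists of readthrough loci were 130 tested genes, of which the stricter call raised 16 and lowered 0. The study drew those lists from its *nerd-1* and WT transcriptomes by a rise in downstream reads, so this split is not an independent result. With any one of the 4 libraries left out, between 2322 and 2597 genes were raised and between 4382 and 4875 lowered, whereas the stricter call took in 628 to 669 raised and 247 to 260 lowered genes. The counts of list and family members below are to be read against these percentages.

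Lists of pathway genes (36) and gene families (43) were examined. Among the lists, the median log2 change ranged from -0.97 for the synthesis of aliphatic glucosinolates to 1.11 for the light-harvesting antenna. The lists furthest above the transcriptome were the light-harvesting antenna, the regulators of touch and early stress (0.76) and the metallothioneins (0.62), and those furthest below were the aliphatic glucosinolate list (-0.97), the cold response (-0.73) and the heat shock list (-0.44).

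**Figure D1:**
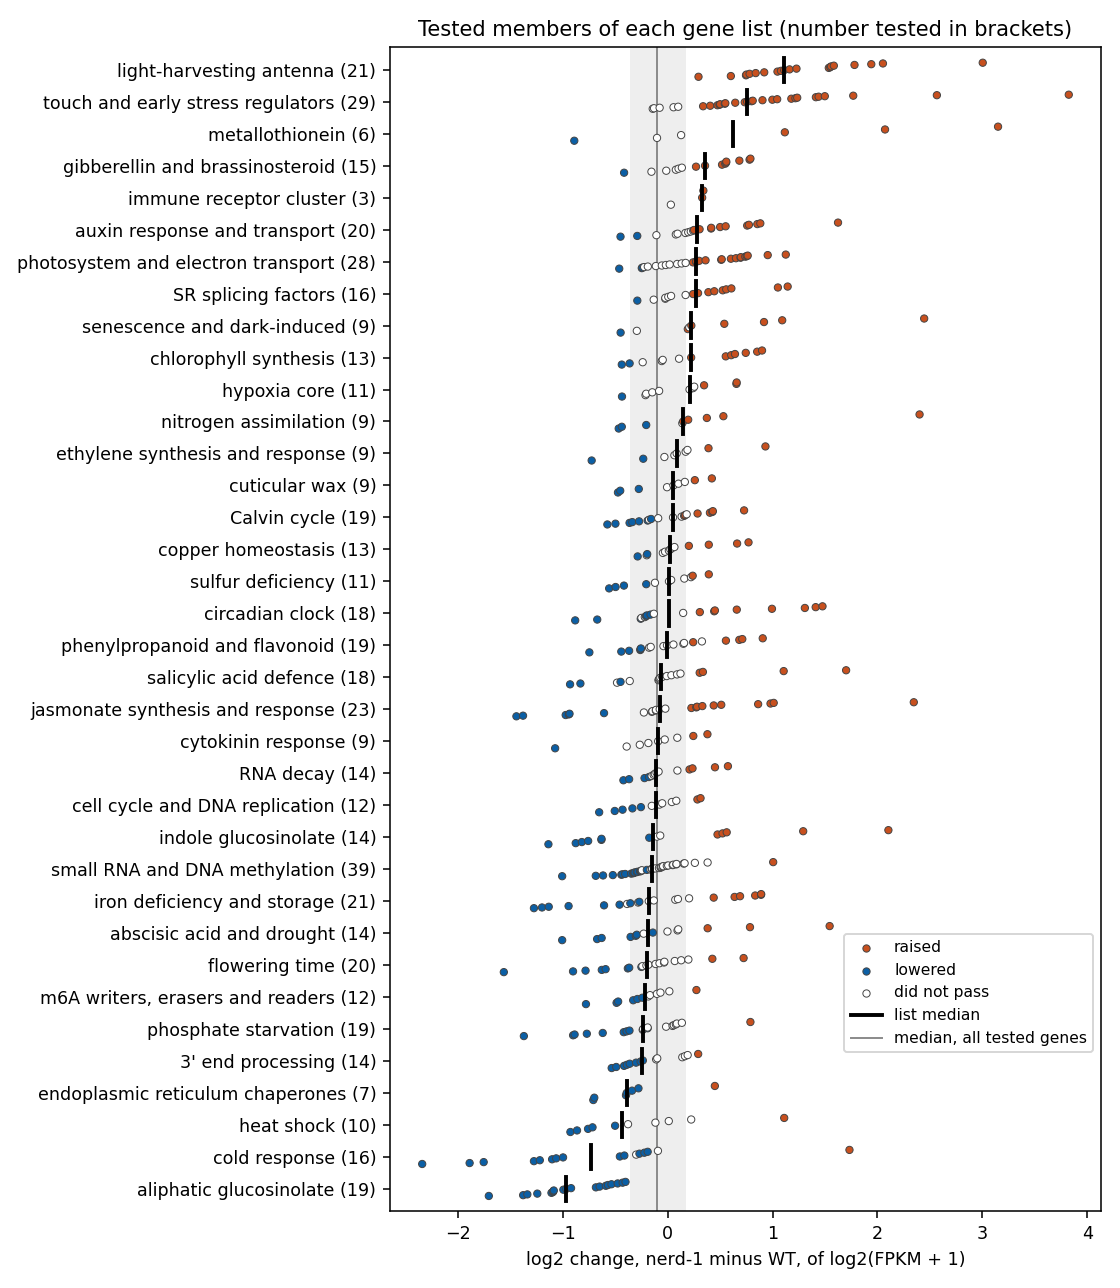
Log2 change (*nerd-1* minus WT, of log2(FPKM + 1)) of the tested members of 36 gene lists, 1 point per gene, coloured by the call at an adjusted p of 0.05, with the list median as a black bar. The grey band spans the quartiles of all 19455 tested genes (-0.35 to 0.17) and the grey line their median (-0.10). All 19 aliphatic glucosinolate genes lie to the left of the band, the points of the antenna list to its right. *CAB1*, listed at 0 in *nerd-1*, is off the scale.

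Genes that respond within minutes to touch, wounding or microbial elicitors stood higher in *nerd-1*. Of 31 such regulators 29 were tested, 24 were raised, 12 by the stricter call, and none was lowered. *TCH4* (AT5G57560, chr5:23307006-23308680, minus strand), a touch-induced xyloglucan endotransglucosylase that remodels the cell wall, had 51.5 and 53.6 FPKM in WT against 743 and 772 FPKM in *nerd-1*. Its level was 14.4 times the WT mean (log2 change 3.82, SE 0.05, adjusted *p* = 4.44e-06, limma), and the groups were far apart. *TCH3*, a calmodulin-like calcium sensor, had 112.7 and 111.0 FPKM in WT against 657 and 678 FPKM in *nerd-1* (5.97 times, adjusted *p* = 1.21e-05, limma). Antisense transcripts are annotated across *TCH3*, and the strand setting of the quantification is not given in the sources used here, so part of its value may belong to them. The companion *TCH2*, another calmodulin-like protein, changed by 1.00 on the log2 scale.

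Many transcription factors of the same list were raised in *nerd-1* as well. *SZF1*, a tandem zinc finger protein induced by salt and elicitors, went from 43.5 and 41.4 FPKM in WT to 148.7 and 145.3 in *nerd-1* (log2 change 1.77, adjusted *p* = 3.03e-05, limma). *WRKY33*, a regulator of camalexin synthesis and of defence against necrotrophic fungi, had 40.8 and 45.6 FPKM in WT against 121.0 and 126.4 in *nerd-1* (2.86 times, adjusted *p* = 0.000132, limma). *WRKY18*, which acts with *WRKY40* as a modulator of basal defence, had 8.43 and 7.85 FPKM in WT against 23.4 and 24.2 in *nerd-1*. In each case both mutant libraries exceeded both WT libraries by more than the distance between replicates. The zinc finger repressors *ZAT10* and *ZAT12* changed by 1.04 and 1.18, and the ethylene response factors *ERF6* and *ERF11* by 1.41 and 1.22 on the log2 scale. *WRKY46*, *ERF5*, *ORA47*, *WRKY11* and *CML37* did not pass, with log2 changes between -0.14 and 0.10. With libraries scaled to their totals 21 members were raised and 1 lowered.

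W-boxes, with the core TTGAC, are the binding sequences of WRKY factors, and the 180 bases before the annotated start of *WRKY33* and of *SZF1* (TAIR10.1, RefSeq, 5′ to 3′ along the gene) are given because these are 2 of the early regulators that rose. Capitals mark the core on either strand, so that GTCAA is the core read from the other strand.
WRKY33, chr2:16108055-16108234, plus strand: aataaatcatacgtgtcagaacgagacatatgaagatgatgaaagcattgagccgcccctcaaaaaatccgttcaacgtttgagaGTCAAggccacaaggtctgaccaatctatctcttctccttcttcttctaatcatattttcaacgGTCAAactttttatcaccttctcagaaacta
SZF1, chr3:20776040-20776219, plus strand: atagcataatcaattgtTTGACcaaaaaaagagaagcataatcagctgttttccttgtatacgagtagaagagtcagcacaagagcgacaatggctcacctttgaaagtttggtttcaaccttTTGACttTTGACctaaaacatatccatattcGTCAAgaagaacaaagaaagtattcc
*WRKY33* has 2 cores in this stretch and *SZF1* has 4. In windows from 250 bases before to 50 bases after the start, the core occurred in 20 of 29 promoters of the early stress list (69%) and in 50.9% of the 18944 promoters of tested protein-coding genes. It occurred in 57.6% of the promoters of genes raised by the stricter call and in 50.2% of those lowered. The sequence CGCGTT, known as a rapid stress response element, was present in 1 of the 29 and in 3.7% of all promoters, whereas 49 of the 648 promoters of genes raised by the stricter call (7.56%) and 3 of the 223 lowered ones (1.35%) held it on either strand. These are counts of letters in a window and do not show that a factor binds.

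Of 101 tested MYB genes 56 were lowered and 14 raised, with a median log2 change of -0.38. *MYB73* had 23.1 and 21.9 FPKM in WT against 133.7 and 133.0 in *nerd-1* (5.94 times, adjusted *p* = 5.99e-05, limma). *MYB77*, which modulates auxin responses in roots, had 14.6 and 14.8 FPKM in WT against 82.7 and 79.9 in *nerd-1*, and *MYB70* had 5.93 and 6.29 against 28.8 and 28.3 FPKM. These 3 genes and *MYBR1* (*MYB44*), a stress and abscisic acid regulator named here after its values were seen, make up one subgroup of R2R3 MYB factors, which was put together after the values were seen. *MYBR1* had 30.4 and 31.4 FPKM in WT against 109.8 and 103.5 FPKM in *nerd-1*. All 4 lay above WT in both libraries.

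Of 27 tested xyloglucan endotransglucosylase/hydrolases (XTH), the enzymes that cut and rejoin xyloglucan chains in growing walls, 15 were raised and 3 lowered, with a median of 0.34. *XTH25*, which lies beside *TCH4*, went from 0.935 and 0.844 FPKM in WT to 4.32 and 3.97 in *nerd-1*, and *XTH18* from 13.9 and 13.0 to 29.4 and 30.6 FPKM. With libraries scaled to their totals only 9 XTH genes were raised and 7 lowered, so the direction of the smaller changes rests on scaling, and 9 to 11 were raised with any one library left out. Among 24 aquaporins, 18 were raised and 1 lowered (median 0.55). All 12 tested plasma membrane intrinsic proteins, the channels that carry water into the cell, were raised, as were 3 of 5 tonoplast ones, which face the vacuole. *PIP3* had 387.5 and 385.8 FPKM in WT against 772 and 772 in *nerd-1* (log2 change 1.00, adjusted *p* = 0.00109, limma). *PIP1A* went from 166.2 and 170.3 to 321.1 and 321.5 FPKM, and the root-enriched *TIP2;3* from 9.44 and 9.17 to 22.4 and 20.8 FPKM. When any one library was left out, 11 to 12 aquaporins were raised, with 14 on total scaling.

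Genes of the light-harvesting antenna, the chlorophyll proteins that collect light for both photosystems, were the list with the highest median. All 21 were tested, 20 were raised, 14 by the stricter call, and 1 was lowered. *LHCB3* (AT5G54270, chr5:22038165-22039568, plus strand), a minor component of the photosystem II antenna trimers, had 860.3 and 870.3 FPKM in WT against 6814 and 7077 in *nerd-1*, which is 8.03 times the WT mean (log2 change 3.003, SE 0.17, adjusted *p* = 0.000112, limma). The antenna genes *LHCB2.1* and *LHCB2.3* had 217.5 and 263.1 and 234.4 and 237.4 FPKM in WT, respectively, and 930.7 and 911.9 and 815.3 and 810.9 FPKM in *nerd-1*. The photosystem I antenna genes *LHCA1* and *LHCA4* changed by 1.54 and 1.55 on the log2 scale. The groups did not overlap at any of these genes, and *LHCB2.1* has a near-identical neighbour, *LHCB2.2*, with which it may share reads.

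*CAB1*, *CAB2* and *CAB3* encode near-identical antenna proteins in one gene cluster, and reads shared between them limit their values. *CAB1* had 11763 and 11623 FPKM in WT and was listed at 0 in both *nerd-1* libraries, and in the *nerd-1*+T replicates it was listed at 13469 and 0 FPKM. A value of 0 in such a gene may be a failed estimate, and no fold is given. The call of *CAB1* as lowered was lost when any one of the 4 libraries was left out. *CAB2* had 667.8 and 686.9 FPKM in WT against 2824 and 2799 in *nerd-1*, and *CAB3* changed by 1.56 on the log2 scale. The sum over the 3 genes was 13844 and 13729 FPKM in WT against 7021 and 6941 FPKM in *nerd-1*, so that it moved against *CAB2* and *CAB3*. Without the cluster, 18 of 18 tested antenna genes were raised, 12 by the stricter call, with a median log2 change of 1.095, and their sum went from 17328 and 17373 FPKM to 43344 and 42978 FPKM.

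The other parts of the photosynthetic apparatus changed less. Among 28 nuclear genes for photosystem subunits and electron carriers, 16 were raised and 3 lowered (median 0.27). *PSAO*, a photosystem I subunit near the docking site of the mobile antenna, went from 1267 and 1222 to 2672 and 2760 FPKM, and *PSBW*, a small photosystem II subunit, from 1176 and 1216 to 2352 and 2284 FPKM. In chlorophyll synthesis 7 of 13 were raised and 2 lowered. *GUN5*, the H subunit of magnesium chelatase, had 223.9 and 216.3 FPKM in WT against 415.2 and 407.8 in *nerd-1*, and *CAO*, which makes chlorophyll *b*, had 64.4 and 67.3 against 117.2 and 122.4 FPKM. Calvin cycle genes were split, with 7 raised and 7 lowered of 19 and a median of 0.05. Their largest changes were in *GAPA2*, a chloroplast glyceraldehyde phosphate dehydrogenase (log2 change 0.73), and in the regulator *CP12-2* (-0.57). Under total scaling 12 photosystem genes were raised and 5 lowered, and the Calvin cycle list had 2 raised and 8 lowered. With any one library left out, 0 photosystem genes were lowered, and 2 Calvin cycle genes were raised and 3 to 4 lowered. In chlorophyll synthesis 5 were lowered under total scaling and 0 to 1 with a library left out.

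**Figure D2:**
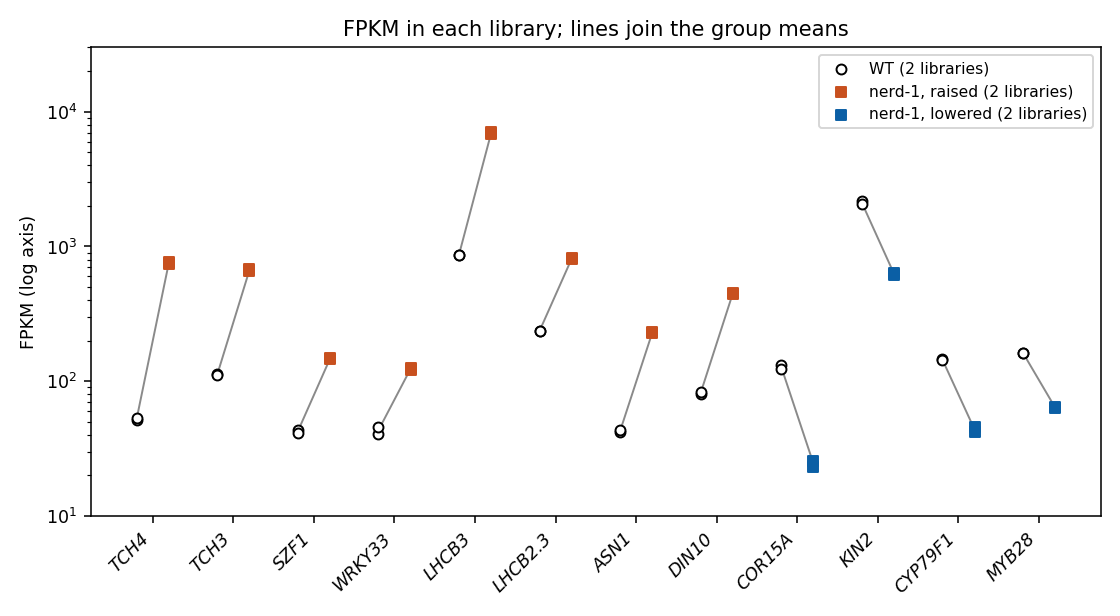
FPKM (log axis) of 12 genes in each WT library (open circles) and each *nerd-1* library (squares), with lines between group means. The 8 genes on the left were raised, from *TCH4* (51.5 and 53.6 to 743 and 772 FPKM) to *DIN10*, and the 4 on the right were lowered, and for none of them do the groups overlap.

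Metallothioneins, small cysteine-rich proteins that bind copper and zinc, included the gene with the highest FPKM in each of the 4 libraries. *MT1A* (AT1G07600, chr1:2338904-2339321, minus strand) had 13761 and 14739 FPKM in WT against 122376 and 130395 in *nerd-1* (log2 change 3.15, SE 0.51, adjusted *p* = 0.00343, limma). The gene has 138 exonic bases in the annotation of TAIR10.1, little more than a read of 125 bp. Its FPKM may therefore not show how abundant the transcript is. It lies inside AT1G07590 on the same strand, whose FPKM were 572 and 561 in WT and 514 and 528 in *nerd-1*. *MT1A* was at 30610 and 9330 FPKM in the *nerd-1*+T libraries, a spread that enters its SE. *MT1B* had 5.96 and 6.12 FPKM in WT against 36.7 and 22.3 in *nerd-1*, and *MT2B* had 615.3 and 639.2 against 1385 and 1337 FPKM. By contrast *MT3* fell from 7829 and 7784 to 4310 and 4120 FPKM (log2 change -0.89), and *MT1C* did not pass (0.13, adjusted *p* = 0.14, limma). *MT2A* did not pass either, with 943.3 and 871.1 FPKM in WT and 849.5 and 840.6 FPKM in the mutant libraries, so members of type 1 and of type 2 differed among themselves. In the copper list as a whole 4 of 13 were raised and 2 lowered (2 and 5 under total scaling, 2 and 0 with any one library left out), led by the copper/zinc superoxide dismutase *CSD1* (13.1 and 12.6 to 23.0 and 22.3 FPKM).

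Several families of short transcripts were raised. Of 46 tested genes annotated as glycine-rich proteins, a loose group of wall proteins and RNA-binding proteins, 32 were raised and 6 lowered, 19 by the stricter call, with a median log2 change of 0.65. *GRP2B*, a cold shock domain protein that chaperones RNA, had 8.81 and 8.64 FPKM in WT against 37.3 and 37.7 in *nerd-1*. *GRP23* (AT2G32690) went from 42.4 and 39.97 to 166.1 and 160.2 FPKM, and AT1G07135 from 37.9 and 36.2 to 139.9 and 139.6 FPKM. Of 5 tested glycine-rich RNA-binding genes 4 were raised. Of 15 genes annotated as 40S or 60S ribosomal proteins 10 were raised and 3 lowered (median 0.78), and the 8 acidic proteins of the 60S stalk, which recruit translation factors, were all raised. AT5G57290 had 23.7 and 21.2 FPKM in WT against 89.8 and 89.6 in *nerd-1*, and AT4G25890 had 14.5 and 14.3 against 42.5 and 40.7 FPKM. Most cytosolic ribosomal genes carry another product name and are not in this group. With any one library left out, 16 to 17 glycine-rich genes and 6 to 8 of the ribosomal ones were raised.

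Exonic length moved with these calls, and base composition with the median log2 change. Among genes with up to 500 exonic bases 19.2% were raised by the stricter call and 5.42% lowered, against 2.01% and 0.675% among genes of 2000 to 4000 bases. The median log2 change differed little between the same classes (0.03 and -0.12). The median exonic length was 915 bases for the ribosomal group, 1030 for the glycine-rich genes and 1295 for the chlorophyll binding genes. It was 1156 for the glutathione S-transferases, of which 26 of 48 were lowered and 9 raised, so a short family was not always a raised one. Of all tested genes, 6.04% of those with 500 to 1000 bases and 3.67% of those with 1000 to 2000 bases were raised by the stricter call. In genes with over 44% GC in their exons the median log2 change was 0.00, and in genes with up to 38% it was -0.15. The stricter call raised 5.11% of the former and 5.37% of the latter, and it lowered 0.613% and 3.86%. In the classes between, 3.51% (38 to 41% GC) and 2.55% (41 to 44%) were raised. The part of length and GC content in the results was not tested.

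**Figure D3:**
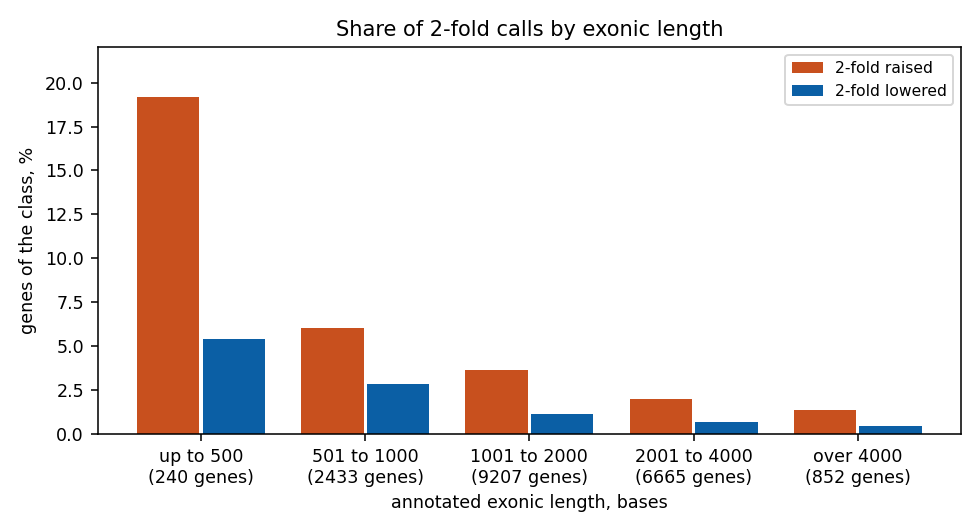
Percentage of tested genes raised or lowered by the stricter call (log2 change at least 1 from the median of all genes, adjusted p under 0.05) in 5 classes of annotated exonic length. The share raised falls from 19.2% of 240 genes with up to 500 bases to 1.41% of 852 genes with over 4000 bases.

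Cold-regulated genes stood lower in *nerd-1*. All 16 genes of the list were tested, 13 were lowered, 5 by the stricter call, and 1 was raised. On median scaling 10 were lowered, and under total scaling 15. *COR15A* (AT2G42540, chr2:17710441-17712330, minus strand), a chloroplast protein that protects membranes during freezing, had 132.3 and 123.6 FPKM in WT against 23.3 and 25.7 in *nerd-1*, which is 5.22 times lower (log2 change -2.34, SE 0.10, adjusted *p* = 4.82e-05, limma). *KIN2*, a small hydrophilic cold-induced protein, fell from 2169 and 2062 to 615.3 and 638.5 FPKM, and its tandem copy *KIN1* from 37.8 and 37.1 to 9.09 and 9.73 FPKM. *RD29A*, a reporter gene of cold and drought signalling, had 66.0 and 65.7 FPKM in WT against 27.0 and 26.3 in *nerd-1* (log2 change -1.27, adjusted *p* = 4.69e-05, limma). Values of *KIN1* and *KIN2* are uncertain to the extent that the copies share reads, but neither group overlapped the other. The CBF factors, which activate these genes in the cold, were divided. *CBF2* rose from 5.01 and 5.40 to 19.4 and 19.9 FPKM, whereas *CBF1* and *CBF3* had log2 changes of -0.41 and -1.101, and the 3 are tandem copies.

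CBF factors bind the CRT/DRE element, whose core is CCGAC, and the 180 bases before the annotated start of *COR15A* and *RD29A* are shown because both genes fell and both hold it. Capitals mark the core on either strand (GTCGG on the other strand).
COR15A, chr2:17712331-17712510, minus strand: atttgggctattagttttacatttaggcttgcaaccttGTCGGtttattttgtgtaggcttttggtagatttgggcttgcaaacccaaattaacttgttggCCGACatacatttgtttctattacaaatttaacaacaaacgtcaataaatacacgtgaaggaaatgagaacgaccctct
RD29A, chr5:21240537-21240716, plus strand: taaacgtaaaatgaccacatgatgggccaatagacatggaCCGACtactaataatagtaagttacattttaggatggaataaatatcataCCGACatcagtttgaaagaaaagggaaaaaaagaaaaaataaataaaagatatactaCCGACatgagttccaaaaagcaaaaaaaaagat
*COR15A* has 2 cores and *RD29A* has 3 in this stretch. Over the window of 250 bases before to 50 after the start, 5 of 16 promoters of the cold list held the core, against 16.2% of all 18944 promoters, 15.9% of those raised and 13.9% of those lowered by the stricter call.

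Synthesis of aliphatic glucosinolates, the methionine-derived defence compounds of the Brassicales, was lowered throughout. All 19 genes of the list were tested and all 19 were lowered, 5 by the stricter call, from the transcription factors to the last steps of the pathway. *MYB28* (AT5G61420, chr5:24689069-24691187, minus strand), the main activator of the pathway, had 161.6 and 163.4 FPKM in WT against 63.3 and 64.2 in *nerd-1* (log2 change -1.34, SE 0.08, adjusted *p* = 0.000154, limma). *MYB29*, its close relative, fell from 36.5 and 36.7 to 15.0 and 14.8 FPKM. *CYP79F1*, which makes aldoximes from chain-elongated methionine, fell from 147.1 and 142.7 to 45.4 and 42.2 FPKM (log2 change -1.70, adjusted *p* = 5.51e-05, limma). The sulfotransferase *SOT17* fell from 40.6 and 45.5 to 15.5 and 16.4 FPKM and the chain elongation enzyme *IPMI1* from 38.2 and 39.8 to 18.8 and 16.4 FPKM. *CYP79F1* may share reads with its tandem copy *CYP79F2*. The smallest change, in *CYP83A1*, was -0.40, and the 19 genes were also lowered on total scaling, whereas 18 were on median scaling.

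Indole glucosinolate genes, by comparison, were divided, with 5 raised and 7 lowered of 14 and a median of -0.14. The raised ones were led by *CYP81F2*, which modifies indole glucosinolates during defence (2.71 and 2.48 to 14.8 and 14.1 FPKM), and by its activator *MYB51* (16.1 and 17.1 to 40.9 and 43.3 FPKM). *MYB34*, the factor that controls constitutive synthesis, fell from 55.9 and 54.1 to 24.2 and 24.8 FPKM. *CYP81F4*, another modifying enzyme, fell from 194.2 and 200 to 105.1 and 108.8 FPKM. The genes found by name as beta-glucosidases had 20 of 31 lowered and 2 raised, with a median of -0.40. All genes of this group summed to 1052 and 1048 FPKM in WT, so that the root gene *PYK10* is not among them. The group therefore does not hold the whole family. *BGLU9* went from 32.2 and 33.9 to 17.5 and 17.56 FPKM and *BGLU47* from 4.002 and 3.92 to 1.92 and 1.47 FPKM. *BGLU43* stood at 2.11 and 1.70 against 0.670 and 0.4999 FPKM.

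Chaperone genes were lower on balance. Of 19 heat shock genes 10 were tested, 5 were lowered and 1 raised. The multiprotein bridging factor *MBF1C* fell from 23.2 and 23.7 to 11.3 and 12.4 FPKM, and *HSP70-4* from 13.9 and 13.7 to 6.77 and 7.51 FPKM. *HSFB2A*, a repressor-type heat shock factor, was the one that rose (7.98 and 7.74 to 18.1 and 18.17 FPKM). Without a filter on low values the median of the heat shock list lay 0.008 above that of all genes. In the endoplasmic reticulum 6 of 7 folding genes were lowered, among them the calnexin *CNX1* (120.3 and 120.9 to 73.6 and 73.2 FPKM) and *SDF2* (49.5 and 51.2 to 29.3 and 32.0 FPKM). *BZIP60*, the factor that induces them under folding stress, rose from 30.3 and 29.0 to 40.04 and 41.7 FPKM.

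Hormone pathways showed mixed patterns. For jasmonate, 10 of 23 were raised and 6 lowered, and under total scaling 6 were raised and 12 lowered, and with any one library left out 5 to 6 were raised. *JAZ7*, a repressor of jasmonate signalling, rose from 1.15 and 0.974 to 8.996 and 9.96 FPKM (log2 change 2.35, adjusted *p* = 0.000108, limma), and *JAZ9* from 49.0 and 54.8 to 103.8 and 107.2 FPKM. *LOX2*, the chloroplast lipoxygenase of jasmonate synthesis, fell from 244.5 and 244.3 to 94.2 and 92.8 FPKM, and *CORI3*, a jasmonate-induced cystine lyase, from 36.3 and 34.5 to 12.2 and 12.6 FPKM. *LOX4*, another lipoxygenase, rose from 2.87 and 3 to 6.67 and 6.86 FPKM.

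For salicylic acid, 18 of 24 genes were tested, 4 were raised and 3 lowered, against 2 and 6 under total scaling and 2 to 3 raised with any one library left out. *WRKY70*, which acts where salicylic acid and jasmonate signalling meet, rose from 25.96 and 26.5 to 85.0 and 90.11 FPKM (log2 change 1.70, adjusted *p* = 3.03e-05, limma). *CBP60G*, an activator of salicylic acid synthesis, rose from 11.4 and 10.8 to 24.6 and 25.4 FPKM. The marker *PR2* fell instead, from 3.43 and 3.31 to 1.38 and 1.21 FPKM, and *PBS3*, an enzyme of salicylic acid synthesis, from 1.84 and 2.21 to 0.711 and 0.680 FPKM. The list therefore had members far from the median on both sides. Its share raised (22.2%) was near the 20.5% of all tested genes, and its share lowered was 16.7% against 37.5%.

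Of 20 tested auxin genes 11 were raised and 2 lowered (median 0.28). *DFL1*, a GH3 enzyme that conjugates auxin to amino acids, rose from 32.7 and 32.6 to 100.8 and 104.9 FPKM. The early auxin-induced repressors *IAA3*, *IAA4* and *IAA14* changed by 0.88, 0.85 and 0.77 on the log2 scale, and the auxin efflux carrier *PIN3* by 0.76. Of 15 gibberellin and brassinosteroid genes 9 were raised and 1 lowered (median 0.36), with log2 changes of 0.79 in the gibberellin-induced peptide gene *GASA1* and 0.78 in the brassinosteroid synthesis gene *CPD*. In the abscisic acid and drought list 3 of 14 were raised and 7 lowered, with 4 to 5 lowered when a library was left out. *RD26*, a drought-induced NAC factor, rose from 10.5 and 11.3 to 33.5 and 34.0 FPKM, whereas *RD20*, a caleosin, fell from 15.65 and 17.1 to 7.62 and 7.67 FPKM. Among 9 cytokinin response genes the type A response regulator *ARR8* fell from 48.2 and 48.6 to 21.9 and 23.1 FPKM and 2 others were raised. *ACS6*, an enzyme of ethylene synthesis, rose from 34.9 and 34.6 to 66.8 and 67.6 FPKM, while *ACO1*, which acts in the next step, fell from 8.09 and 8.77 to 4.65 and 4.75 FPKM. For ethylene as a whole 2 of 9 were raised and 2 lowered.

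Genes that respond to darkness or low sugar were among the stronger rises. Of 9 tested genes of senescence and darkness 6 were raised and 1 lowered, and 3 to 4 were raised with any one library left out and 4 under total scaling. *DIN10* (AT5G20250), a dark-induced raffinose synthase family gene, had 81.1 and 82.6 FPKM in WT against 446.5 and 454.3 in *nerd-1* (log2 change 2.45, SE 0.06, adjusted *p* = 1.82e-05, limma). *SEN1*, which is induced by darkness and senescence, rose from 242.3 and 239.7 to 452.4 and 460.7 FPKM. *SAG13*, a senescence marker of low level, had 0.595 and 1.12 FPKM in WT against 2.997 and 2.84 in *nerd-1*. In nitrogen assimilation 5 of 9 were raised and 3 lowered, led by *ASN1*, the dark-induced asparagine synthetase (42.2 and 43.3 to 227.4 and 232.2 FPKM, log2 change 2.40, adjusted *p* = 3.36e-05, limma). The nitrite reductase *NIR1* fell from 245.2 and 240.4 to 175.6 and 175.3 FPKM. Of the nitrogen list 2 genes were raised under total scaling, and likewise 2 with any one library left out. These dark-induced genes and the antenna genes, which light induces, were thus both higher in *nerd-1*.

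In the iron list 8 of 21 were lowered (38.1%) and 6 raised (28.6%), against 37.5% and 20.5% of all tested genes. The share lowered was thus near that of all genes, and regulators were found on both sides. *PYE* and *FIT*, bHLH factors of the iron deficiency response, fell from 28.1 and 29.7 to 12.03 and 10.7 FPKM and from 12.7 and 12.1 to 5.33 and 4.87 FPKM. *NAS1*, a nicotianamine synthase, fell from 78.8 and 82.8 to 36.3 and 33.1 FPKM. The root iron transporter *IRT1* and the factor *bHLH101* rose, from 7.24 and 8.18 to 14.9 and 15.4 FPKM and from 5.36 and 5.80 to 11.1 and 11.2 FPKM. Among phosphate starvation genes 9 of 19 were lowered and 1 raised. The phosphatase gene *PS2* fell from 4.16 and 3.37 to 0.821 and 0.856 FPKM and *SPX1*, an inhibitor of phosphate starvation signalling, from 57.9 and 57.1 to 30.8 and 30.5 FPKM. The noncoding RNA *AT4* moved the other way (32.0 and 27.8 to 51.4 and 53.1 FPKM), while *IPS1*, a related one, fell from 5.54 and 7.73 to 3.17 and 2.93 FPKM. In the sulfur list 2 of 11 were raised and 4 lowered, with log2 changes no larger than 0.56 among the named genes *LSU2* (-0.56) and *SDI2* (0.39).

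Clock genes moved in both directions. Of 18 tested, 8 were raised, 4 by the stricter call, and 6 were lowered, with 2 to 3 lowered when a library was left out. The morning genes *CCA1*, *RVE1* and *LNK2* rose, from 28.4 and 29.0 to 57.7 and 58.7 FPKM, from 24.5 and 23.8 to 61.2 and 61.4 FPKM and from 61.7 and 62.9 to 165.8 and 168.9 FPKM. *CHE*, a repressor of *CCA1*, rose from 16.6 and 16.1 to 47.7 and 46.9 FPKM, and *LHY*, the partner of *CCA1*, had a log2 change of 0.66. *PRR3*, a pseudo-response regulator of the evening, fell from 25.3 and 25.1 to 13.7 and 12.8 FPKM, and *PRR9*, a regulator of the morning, had a log2 change of -0.67. The hour of harvest of each library is not given in the sources used here, so hour and genotype cannot be told apart in these genes. Among flowering genes 8 of 20 were lowered (40%, near the 37.5% of all tested genes) and 2 raised. Under total scaling 15 were lowered and 2 raised, and on median scaling 7 and 4. *FT*, the mobile flowering signal, fell from 2.05 and 2.06 to 0.614 and 0.656 FPKM, and *AGL24*, a floral promoter, from 12.2 and 12.8 to 3.46 and 3.70 FPKM. *FLC*, the repressor of flowering, rose from 11.8 and 11.9 to 19.9 and 20.5 FPKM (log2 change 0.72, adjusted *p* = 0.000282, limma). Antisense transcription is annotated at *FLC*.

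Of 12 genes that write, erase or read m6A 6 were lowered and 1 was raised, against 10 and 0 under total scaling and 5 and 1 on median scaling. *FIP37*, a subunit of the methyltransferase complex, fell from 33.5 and 31.7 to 18.0 and 19.2 FPKM (log2 change -0.78, SE 0.14, adjusted *p* = 0.00542, limma), whereas the catalytic subunit *MTA* did not pass (-0.10). The eraser *ALKBH10B* and the reader *ECT3* had log2 changes of -0.49 and -0.47. In 3' end processing 8 of 14 were lowered and 1 raised (3 to 6 lowered with any one library left out), with *ESP1*, a protein related to the cleavage stimulation factors, at -0.53, *CSTF50* at -0.49 and the poly(A) polymerase *PAPS1* at 0.29. Among SR splicing factors 9 of 16 were raised and 1 lowered (median 0.27). *SCL30* rose from 20.8 and 21.96 to 46.0 and 51.0 FPKM and *RSZ22* from 13.0 and 12.1 to 28.2 and 25.8 FPKM. With any one library left out 4 SR genes were raised, and under total scaling 5 were raised and 6 lowered. Of 14 RNA decay genes 4 were raised and 4 lowered, against 2 and 9 under total scaling and 2 and 0 to 2 with any one library left out.

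In small RNA pathways and DNA methylation 16 of 39 were lowered and 1 raised, close to the share of all genes lowered. *AGO3*, an ARGONAUTE of low level in WT, had 0.360 and 0.285 FPKM in WT against 1.72 and 1.59 in *nerd-1*, and since it passed the filter through *nerd-1* alone no test is given. *IDN2*, a double-stranded RNA-binding protein of RNA-directed DNA methylation, fell from 30.1 and 27.5 to 14.2 and 13.5 FPKM. *AGO7*, the ARGONAUTE of trans-acting small RNAs, had a log2 change of -0.62. *DML3*, a DNA demethylase, had 2.21 and 1.92 FPKM in WT against 0.940 and 0.867 in *nerd-1*, and it passed the filter through WT alone. Under total scaling 28 of the 39 were lowered, and with any one library left out 7 to 10.

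Of the families shown in the plot by family, the one with the highest share of lowered members was that of the pentatricopeptide repeat (PPR) proteins, which bind, edit and process RNA in chloroplasts and mitochondria. Of 261 annotated genes 213 were tested, 156 were lowered (73.2%) and 1 was raised, and in 192 both *nerd-1* libraries lay below both WT libraries. The quartiles of their log2 changes were -0.52 and -0.21, and none passed the stricter call. The median over PPR genes of the mean level was 3.72 FPKM in WT and 2.53 in *nerd-1*. AT3G46870 had 14.6 and 14.5 FPKM in WT against 6.12 and 6.75 in *nerd-1*, AT2G36730 had 4.73 and 3.98 against 1.70 and 1.66 FPKM, and AT1G66345 had 3.304 and 2.57 against 1.13 and 0.947 FPKM. On median scaling 125 were lowered and 3 raised, and with any one library left out 89 to 111 were lowered. In genes with a mean of up to 5 FPKM the median log2 change over all tested genes was -0.13.

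Receptor-like proteins, leucine-rich membrane proteins with roles in defence and development, and glutathione S-transferases (GST), which conjugate glutathione to reactive compounds, were lower as well, though beta-glucosidases and MYB factors had lower medians. Among 34 receptor-like proteins 19 were lowered and none raised (median -0.29), and leaving out single libraries left 11 to 14 lowered. *RLP29* fell from 4.86 and 4.90 to 1.77 and 1.78 FPKM and *RLP50* from 4.64 and 5.08 to 1.995 and 2.03 FPKM. *RLP26* had 7.27 and 9.13 FPKM in WT against 4.19 and 4.34 in *nerd-1*. Of 48 GST genes 26 were lowered and 9 raised (median -0.31). *GSTF14* fell from 30.9 and 31.8 to 12.3 and 12.8 FPKM and *GSTU23* from 9.86 and 11.96 to 4.33 and 4.86 FPKM. *ERD9*, a drought-induced GST, rose from 4.94 and 5.19 to 13.3 and 13.3 FPKM.

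**Figure D4:**
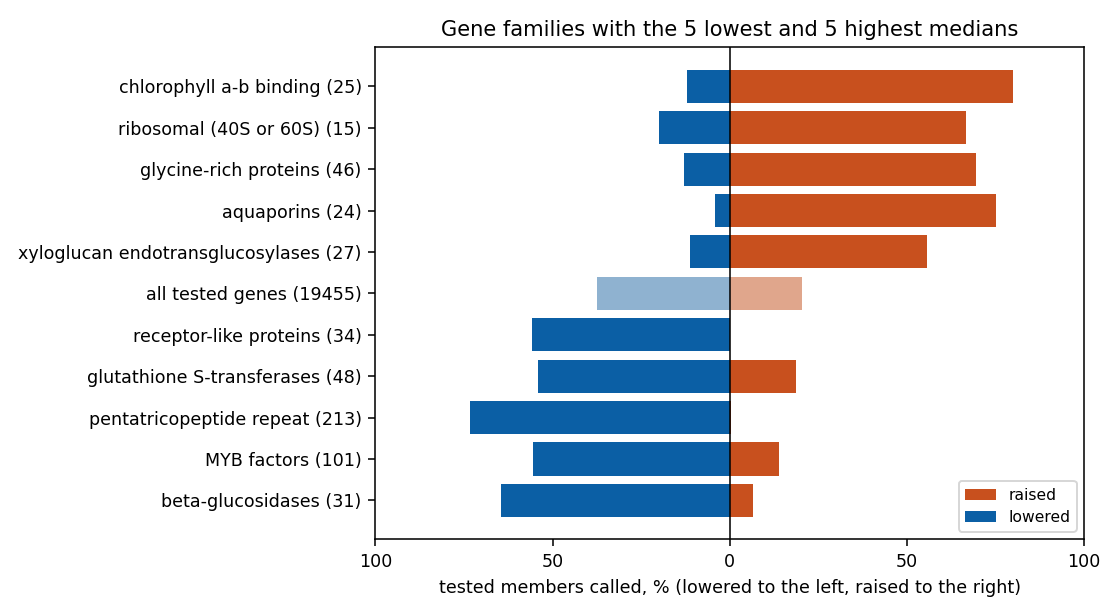
Percentage of tested members lowered (bars to the left) and raised (bars to the right) in the 5 families with the highest and the 5 with the lowest median log2 change, with all 19455 tested genes between them (37.5% lowered, 20.5% raised). The number of tested members is in brackets. PPR genes are lowered in 73.2% of cases, and the chlorophyll binding family has the longest bar on the raised side.

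In the phenylpropanoid and flavonoid list 5 of 19 were raised and 6 lowered, and the late anthocyanin genes *DFR* and *LDOX* had log2 changes of 0.91 and 0.71 at levels of 1.23 to 3.58 FPKM. With any one library left out 2 to 3 of that list were lowered. For cuticular wax 2 of 9 were raised and 3 lowered, for the hypoxia core genes 3 of 11 and 1, and for the cell cycle and DNA replication 2 of 12 and 5. Under total scaling the wax list had 1 raised, the hypoxia list 5 lowered and the cell cycle list 0 raised and 8 lowered, and with any one library left out the wax list had 1 raised, the hypoxia list 2 raised and the cell cycle list 0 to 1 raised and 3 to 5 lowered. For the cell cycle list the replication factor *MCM2* had the largest change (-0.65). Of the 3 genes of the *RPP4/RPP5* immune receptor cluster 2 were raised, both by under 0.35 on the log2 scale, and neither was under total scaling. Their near-identical sequences make the values uncertain.

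The largest single rise was that of *PHI-1* (AT1G35140, chr1:12851983-12853235, plus strand), also known as EXORDIUM-LIKE 1 and related to cell wall proteins of the EXORDIUM family. It had 2.11 and 2.50 FPKM in WT against 99.5 and 95.3 in *nerd-1* (42.3 times, log2 change 4.90, SE 0.07, adjusted *p* = 4.44e-06, limma). Both *nerd-1*+T libraries were high too, at 176.5 and 167.6 FPKM. A pair of genes of the same domain family of unknown function (DUF1005) was also among the 12 largest rises, AT3G19680 with 8.80 and 8.73 FPKM in WT against 111.5 and 107.8 in *nerd-1*, and AT1G50040 with 1.05 and 0.900 against 15.6 and 15.67 FPKM. *TCH4* and *MT1A*, described above, were the other long-known genes among the 12 largest. The remaining 7 were short entries of at most 362 exonic bases that were listed at or near 0 in both WT libraries, among them the precursors *MIR472* (19.1 and 21.4 FPKM in *nerd-1*) and *MIR164b* (10.7 and 10.9 FPKM). *MIR472* lies inside a resistance gene on the same strand, and no fold is given for any of the 7.

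Among the 12 largest falls, *HEI10* (AT1G53490, chr1:19963267-19966952, plus strand), a RING protein needed for meiotic crossovers, went from 17.3 and 17.0 FPKM in WT to 0.780 and 0.662 in *nerd-1*. It passed the filter through WT alone, so no test is given. Its *nerd-1*+T libraries had 0.406 and 0.507 FPKM. *MRD1*, annotated on the opposite strand across it, had 2.201 and 2.74 FPKM in WT against 0 and 0.0305 in *nerd-1*, so both entries at the locus were lower. AT1G31690, a copper amine oxidase family gene, fell from 21.6 and 22.6 to 1.62 and 1.81 FPKM, and AT3G27180, a methyltransferase family gene, from 15.5 and 15.4 to 1.09 and 1.19 FPKM. In both the *nerd-1*+T libraries were also low, with 2.81 and 2.69 and with 1.12 and 1.18 FPKM.

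*XPL1*, a phosphoethanolamine methyltransferase of phosphocholine synthesis, fell from 11.97 and 12.5 to 1.42 and 1.53 FPKM, with 10.9 and 10.5 FPKM in *nerd-1*+T. AT3G52155, a phosphoglycerate mutase family gene, fell from 24.8 and 27.0 to 3.48 and 2.82 FPKM, with 21.2 and 21.1 FPKM in *nerd-1*+T. AT4G31310, an AIG2-like gene, fell from 73.9 and 71.6 to 10.6 and 11.2 FPKM, with 50.8 and 60.9 FPKM in *nerd-1*+T. The difference between *nerd-1*+T and *nerd-1* was not tested here. AT1G78170, annotated as a ubiquitin ligase, fell from 147.6 and 147.7 to 23.5 and 24.3 FPKM, with 30.8 and 52.3 FPKM in *nerd-1*+T. *MIR863*, which overlaps another annotated gene on its strand, had 12.1 and 12.8 FPKM in WT against 0.392 and 0.595 in *nerd-1*, and its *nerd-1*+T libraries were at 4.35 and 6.75 FPKM. AT3G49551, a short entry, fell from 374.3 and 442.9 to 59.1 and 97.7 FPKM, and the lower of its *nerd-1*+T libraries was at 202.5 FPKM. AT1G08005, another, was listed at 0 in both *nerd-1* libraries, and *COR15A* and *CAB1* complete the 12.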

How the data were processed

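Polyadenylated RNA of 14-d-old seedlings was measured in 2 WT, 2 *nerd-1* and 2 *nerd-1*+T libraries, grouped by their labels. According to the submitters' notes and the Methods, the authors removed chloroplast, mitochondrial and ribosomal RNA reads with Bowtie2 2.3.4, mapped to TAIR10 with TopHat2 2.0.7 and estimated FPKM with Cufflinks 2.2.1. The deposited FPKM were used as they stand. The 4 entries per library without an identifier were left out. The reads behind a single value are not known, so precision was judged from the spread between replicates.

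Log2(FPKM + 1) of the 19455 genes with at least 1 FPKM in 2 of the 4 WT and *nerd-1* libraries was fitted with limma 3.58.1 (R 4.3.3, mean-variance trend) over all 6 libraries without a block, and *p*-values were adjusted by Benjamini-Hochberg with a threshold of 0.05, two-sided. The pseudocount of 1 understates log2 changes of low genes. The fit was also run on simulated data with independent noise and few changed genes, which does not test the calls made here. Other steps used Python 3.11.15 (numpy 2.4.6, matplotlib 3.10.9, pandas 2.3.3). The low values showed no whole read steps shared by WT and *nerd-1*.

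The genes described, the lists and the families were chosen with earlier results of these data known. Lists come from textbook knowledge, and 1 entry (*CSD2*) whose identifier the annotation contradicts was dropped. Families were found by name patterns in the annotation, and 5 patterns were narrowed after unrelated proteins had been seen among their matches. Named are *NERD*, the 12 largest rises and falls without overlap between groups, up to 5 members per list and up to 3 per family furthest from the median of all genes, and a few further members given to describe a list. No set test was run. Gene names, positions, exonic lengths and promoter sequences are those of RefSeq for TAIR10.1, in which 19397 of the tested genes were found. The files hold no coordinates, and all 63 genes that the study locates in TAIR10 have the same start and end there. Promoters run from 250 bases before to 50 after the annotated start and were searched on both strands for the motifs named in the text. Alternatives were 2 other scalings, 2 other filters, a pseudocount of 0.1, the replicate number as a block, a fit of the 4 libraries only and the omission of each library.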

Additional observations from a re-analysis of the deposited data

How the results depend on the processing

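The number of genes raised was 3996 and of genes lowered 7289. Scaling to FPKM totals gave 2415 raised and 11028 lowered, and it moved the median log2 change of all genes from -0.10 to -0.28, whereas median scaling moved it to -0.03. A pseudocount of 0.1 took the genes lowered by the stricter call from 237 to 411. When single libraries were left out, 2322 to 2597 genes were raised and 4382 to 4875 lowered, and by the stricter call 628 to 669 were raised and 247 to 260 lowered. A fit in which 1 library stands for a group assumes that it varies like the others. The log2 change of *NERD* was between -0.99 and -0.74 under all alternatives and passed in each, and between -0.83 and -0.80 without single libraries. With the replicate number as a block 3907 genes were raised and 7081 lowered. The numbers did not pair the samples, since the deviations of same-numbered WT and *nerd-1* libraries correlated at 0.064, and the block took the call from 1 of the 213 named genes that passed. Of these 213, 35 lost their call under at least 1 alternative, 27 to 31 when a single library was left out and 19 under total scaling, and none changed direction. The medians of the antenna, early stress, cold and aliphatic glucosinolate lists kept their side of the median of all genes under every alternative, whereas those of the jasmonate, heat shock, iron, sulfur, cytokinin, RNA decay and cell cycle lists changed side in at least 1. The reads behind each FPKM value are not known, so what depth limits was not measured.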
